A study of Mus musculus with 16 samples.

Results

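The Fat-Dachsous and planar cell polarity genes described here are Fat4, Dchs1, Fjx1, Vangl1, Vangl2, Celsr1, Fzd3, Fzd6, Prickle1 and Ptk7. They were chosen by symbol, and these 10 genes were found among 48709 gene identifiers in the RNA tables. All 10 were among the 15982 genes with enough reads to be tested. The chromatin data around them were taken as all peaks within 50 kb of each gene's span. After peaks of one assay were merged over its libraries, these windows held 356 of 335380 ATAC regions, 216 of 267936 H3K27ac regions and 88 of 74967 Tead regions. The libraries came from mouse cochlear progenitors of the organ of Corti, the sensory epithelium of hearing, sorted by fluorescence at 2 embryonic ages. Cells at E12.0 were sorted as Sox2-GFP+ and cells at E13.5 as p27-GFP+, so age and sorting reporter changed together and cannot be told apart. The labels name no other genotype, strain, treatment or sex. There were 2 RNA, 3 ATAC and 2 H3K27ac libraries per age, and 2 Tead libraries at E12.0, which makes 16. Per its title, the series concerns how Yap/Tead-driven self-renewal of progenitors sets organ size.

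Fat4 and Dchs1 are giant cadherins that bind each other across cell contacts, with Fat4 as the receptor and Dchs1 as its ligand. In the fly, Fat also feeds into the Hippo cascade, which restrains the Yap relative Yorkie. The core planar polarity proteins (Celsr, Frizzled, Vangl, Prickle and Dishevelled) sort to opposite faces of neighbouring cells and so align them in the plane of the tissue. In the cochlea this system is known for the uniform orientation of hair bundles and for the narrowing and lengthening of the cochlear duct.

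The younger RNA libraries held 9412287 and 9810541 counted reads, and the older ones 17057725 and 19570863. Levels are given in CPM, reads scaled to a library of 1000000 after TMM, where 10 reads were worth 1.18 to 1.38 CPM in the younger and 0.424 to 0.476 CPM in the older libraries. The mitochondrial ribosomal RNA mt-Rnr2 took 17% and 13.2% of reads at E12.0 but 0.295% and 0.18% at E13.5, and the scaling between ages was therefore varied (below). Markers fixed for the prosensory epithelium summed to 1340 and 1689 TPM (reads per transcript length, scaled to the same total) at E12.0, then 3982 and 4181 at E13.5, with all 10 above the expression filter. Mesenchyme markers summed to 728 to 821 TPM at E12.0 and 425 to 530 at E13.5 (5 of 9 passed the filter, with the defining genes Pou3f4 and Tbx18 at 0 in both E12.0 libraries). Nearly all of this was Lum (713 and 794 TPM, then 415 and 517). Postn followed (14.0 and 23.9 TPM, then 3.62 and 11.2), and both genes were called lower at E13.5. Col1a1, Col1a2, Col3a1, Twist1 and Prrx1 stayed at or below 3.69 TPM in each library. Glial and neural crest markers summed to 356 to 537 TPM over the 4 libraries (4 of 6 passed), and neuronal markers to 9.35 to 17.4 (5 of 6 passed, Neurog1 at 0 at E13.5). Within these sums genes moved in opposite directions: Sox10 was called higher at E13.5 and Erbb3 lower among the glial markers, and Neurod1 and Dcx lower among the neuronal ones, while Tubb3 made up most of the E13.5 neuronal sum (13.3 and 11.8 TPM). Melanocyte markers summed to at most 0.153 TPM at E12.0, where 4 of 5 were at 0, and to 2.90 and 28.9 at E13.5. Endothelial, erythroid and immune markers stayed at or below 16.1 TPM in each library. The part of these cell mixtures in the results below was not tested.

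Of the 10 genes, 3 were higher at E13.5 (Ptk7, Dchs1 and Fzd3) and 1 was lower (Prickle1), while 6 did not pass the test. The test was edgeR's quasi-likelihood test on TMM-scaled counts of 2 against 2 libraries, with Benjamini-Hochberg adjustment over all genes tested and a threshold of 0.05. Across all genes, 45.9% were called, 22.4% higher and 23.5% lower, so 4 calls among 10 genes is close to the background. The median log2 fold change (E13.5 over E12.0) was 0.10 over the 10 genes and 0.05 over all genes tested. In CPM the libraries of the ages did not overlap for 9 of the 10, with E13.5 above in 5 and below in 4. The same held for 75.4% of all genes tested, with E13.5 above in 39.3% and below in 36.1%, so non-overlap with 2 libraries per age is common. In bulk RNA, fewer cells of a type and less RNA per cell cannot be told apart. The labels do not say that replicates came from separate litters, so these p-values measure the spread between the libraries, which may be technical.

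**Figure D1:**
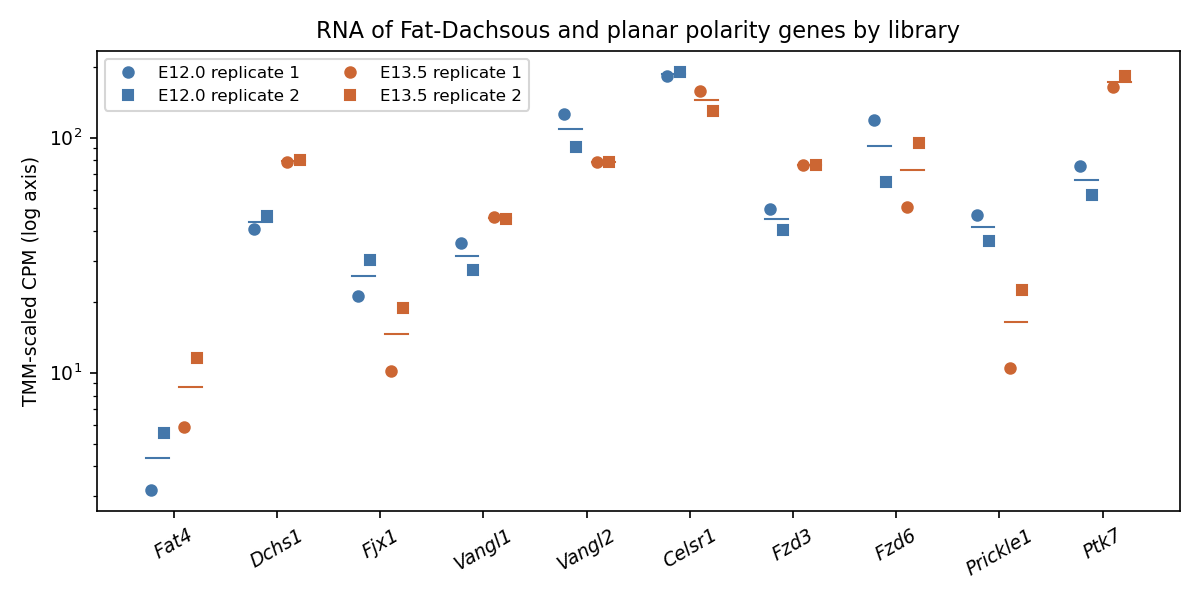
RNA level of each gene in TMM-scaled CPM on a log axis, with 1 point per library (circles replicate 1, squares replicate 2, blue E12.0, orange E13.5) and short bars at the mean of each age. The libraries of the ages do not overlap for 9 of the 10 genes, as for 75.4% of all genes tested, and Ptk7 shows the widest upward step, from 57.0 and 75.4 to 163.5 and 182.5 CPM.

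Among the Fat-Dachsous genes, the ligand Dchs1 rose, and neither the receptor Fat4 nor the modifier Fjx1 passed the test. Dchs1 (ENSMUSG00000036862, chr7:105752989-105788355) measured 40.7 and 46.5 CPM at E12.0 and 79.2 and 80.4 CPM at E13.5. The E13.5 libraries lay close together and above both E12.0 libraries. The log2 fold change was 0.87 ± 0.26 (SE), with an edgeR adjusted p of 0.0179. The call was lost without E12.0 replicate 1 (adjusted p = 0.104 in edgeR), without E13.5 replicate 1 (0.0615) and without E13.5 replicate 2 (0.072).

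Fat4 (ENSMUSG00000046743, chr3:38884667-39011992) was the least abundant of the 10. It was supported by 23 and 47 reads at E12.0, then 124 and 273 at E13.5, which gave 3.16 and 5.53 CPM and then 5.91 and 11.6 CPM. The replicates of each age differed by nearly as much as the ages, although the 2 ages did not overlap. Its log2 fold change of 1.002 ± 0.60 (SE) had an edgeR adjusted p of 0.198. With 1 library left out it ranged from 0.43 (without E13.5 replicate 2) to 1.46 (without E12.0 replicate 2), and on log2(TPM + 1) it was 0.38. The span also holds a long noncoding RNA gene, C230034O21Rik, and because the sources do not state whether counting used strand, reads of the overlap cannot be assigned to one gene with certainty.

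Fjx1 is the mammalian relative of a fly Golgi kinase that phosphorylates Fat and Dachsous cadherin domains and tunes their binding. Fjx1 (ENSMUSG00000075012, chr2:102449366-102451792) measured 21.2 and 30.25 CPM at E12.0, then 10.2 and 18.9 at E13.5. Both E13.5 values lay below both E12.0 values, with a wide gap between replicates at either age. The log2 fold change was −0.82 ± 0.41 (SE), and its edgeR adjusted p was 0.125. Without E13.5 replicate 2 it was −1.34 and passed the test (adjusted p = 0.0452 in edgeR).

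Of the transmembrane core genes, Fzd3 rose, and the other 4 did not pass the test. Fzd3, a Frizzled receptor (ENSMUSG00000007989, chr14:65192441-65262463), measured 49.9 and 40.6 CPM at E12.0 and 76.4 and 76.8 CPM at E13.5. The E13.5 replicates were nearly equal and stood above both E12.0 replicates. The log2 fold change was 0.76 ± 0.26 (SE), with an edgeR adjusted p of 0.0352. It held in the other settings run with all 4 libraries, but leaving out any one of the 4 ended it. The edgeR adjusted p was 0.0635 without E12.0 replicate 1 and 0.17 without E12.0 replicate 2, and it was 0.106 and 0.116 without E13.5 replicates 1 and 2. The span also holds the pseudogenes Gm9086 and Gm52141.

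Fzd6, the Frizzled receptor that acts with Fzd3 in hair bundle orientation (ENSMUSG00000022297, chr15:39006149-39038192), had overlapping ages in CPM. It measured 119 and 64.6 CPM at E12.0 and 50.8 and 95.0 CPM at E13.5. Replicates of the same age thus differed by more than the age means, which were 91.9 ± 38.6 and 72.9 ± 31.3 CPM (SD, n = 2). The log2 fold change of −0.33 ± 0.36 (SE) had an edgeR adjusted p of 0.480, and its sign turned when E12.0 replicate 1 was left out (0.15) or E13.5 replicate 1 was (0.05). On library totals and on TPM the sign was positive as well. The span of Fzd6 overlaps the long noncoding RNA gene Gm26704, with the same limit on assigning reads as for Fat4.

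The 2 Vangl genes code for membrane proteins that recruit Prickle to one face of the cell. Vangl1 (ENSMUSG00000027860, chr3:102153583-102204744) measured 35.6 and 27.3 CPM at E12.0 and 46.15 and 45.0 CPM at E13.5, both later values above both earlier ones. Its span overlaps the long noncoding RNA gene Gm16160, so the limit on assigning reads given for Fat4 applies here too. Vangl2, the gene of the looptail mouse (ENSMUSG00000026556, chr1:172000960-172027318), measured 126 and 91.5 CPM at E12.0, then 78.7 and 78.75 at E13.5, both later values below. In edgeR neither passed, at log2 fold changes of 0.53 ± 0.29 (SE, adjusted p = 0.161) for Vangl1 and −0.47 ± 0.26 (SE, adjusted p = 0.162) for Vangl2. On the TPM scale Vangl1 was called higher and the sign of Vangl2 turned.

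Celsr1, the cadherin that bridges the polarity complexes of neighbouring cells (ENSMUSG00000016028, chr15:85898758-86034223), had the highest CPM of the 10 at E12.0. Its values were 183 and 191 CPM at E12.0, then 158 and 130.4 at E13.5, so both later libraries were lower. The log2 fold change of −0.37 ± 0.24 (SE) did not pass (edgeR adjusted p = 0.221). For Celsr1, Vangl2 and Fzd6 alike the sign depended on the scaling, negative under TMM and positive under library totals (0.20, 0.12 and 0.26).

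Prickle1, the cytoplasmic partner of Vangl (ENSMUSG00000036158, chr15:93499111-93596266), was the only one of the 10 called lower. It measured 46.9 and 36.25 CPM at E12.0 and 10.5 and 22.5 CPM at E13.5, without overlap of the ages. The means were 41.6 ± 7.53 and 16.5 ± 8.47 CPM (SD, n = 2), the log2 fold change was −1.33 ± 0.40 (SE), and the edgeR adjusted p was 0.0201. The call was lost without E12.0 replicate 1 (−1.16, adjusted p = 0.0871 in edgeR) and without E13.5 replicate 1 (−0.88, 0.123). It was also lost on library totals (−0.76, adjusted p = 0.139 in edgeR) and on log2(TPM + 1) in limma (−0.55, adjusted p = 0.326).

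Ptk7 is a catalytically inactive receptor tyrosine kinase that acts as a Wnt co-receptor and whose loss misorients hair cells (ENSMUSG00000023972, chr17:46564451-46630049). It had the largest absolute change of the 10 in the main analysis, narrowly ahead of Prickle1. Prickle1 changed more under DESeq2 (−1.39 against 1.33) and with the replicate number as a block (−1.42 against 1.40). The same held without E12.0 replicate 2 (−1.52 against 1.19) and without E13.5 replicate 2 (−1.99 against 1.30). Ptk7 measured 75.4 and 57.0 CPM at E12.0 and 163.5 and 182.5 CPM at E13.5, and both E13.5 libraries lay far above both E12.0 libraries. The means were 66.2 ± 13.02 and 173 ± 13.4 CPM (SD, n = 2). The log2 fold change was 1.39 ± 0.26 (SE), with an edgeR adjusted p of 0.00163. Ptk7 was called higher in each of the other settings run and without each single library, at log2 fold changes of 1.19 to 1.58 when 1 library was left out.

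**Figure D2:**
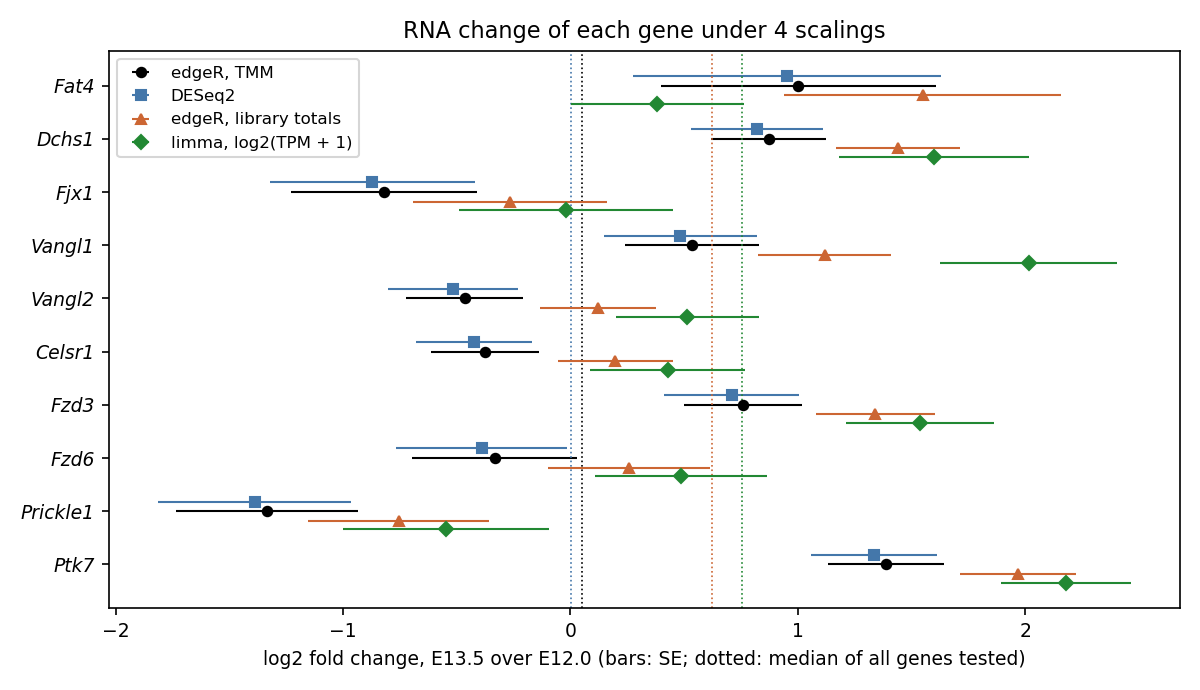
log2 fold change (E13.5 over E12.0) of each gene with its standard error under edgeR with TMM, DESeq2, edgeR on library totals, and limma on log2(TPM + 1). The dotted lines, in the colours of the settings, are the medians of all genes tested (0.05 and 0.00 for the first pair, 0.62 for library totals and 0.755 for TPM). In each of the 4 settings, Ptk7, Dchs1 and Fzd3 lie right of the line of that setting, whereas Prickle1 lies left of it.

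The scaling moved the median of all genes. Library totals moved the median log2 fold change of all genes tested from 0.05 to 0.62, and log2(TPM + 1) moved it to 0.755, though not gene by gene alike, since Vangl1 went from 0.53 to 2.02 and Fat4 from 1.002 to 0.38. The background then became 36.3% higher and 15.6% lower with library totals, and 42.7% higher and 13.1% lower on TPM. Read against these medians, Ptk7, Dchs1 and Fzd3 stayed above and Prickle1 below in all 4 scalings plotted. Vangl1 was the fourth gene called higher under both scalings, at 1.12 on library totals (edgeR adjusted p = 0.0099) and 2.02 on log2(TPM + 1) (limma adjusted p = 0.00211).

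For Vangl1 and Fat4 the unit mattered in a further way, because the tables give a mean transcript length per library and it differed between the ages. The mean length of Vangl1, which has 8 transcripts in the annotation used, was estimated as 6531 and 5971 bases in the E12.0 libraries, against 4423 and 3053 bases at E13.5. That of Fat4, with 2 transcripts, was estimated as 8325 and 7567 bases in the younger and 16109 and 14893 bases in the older libraries. The ratio of the later to the earlier mean was 0.598 for Vangl1 and 1.95 for Fat4, outside the range from the 10th to the 90th percentile of all genes tested (0.832 to 1.24). The other 8 genes had ratios of 0.909 to 1.01. The lengths are estimates made from the same reads, and no junction or transcript counts were analysed here.

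Levels per length, in TPM, ordered the genes differently at the 2 ages. At E12.0 the highest means were Fzd6 (28.2 ± 7.45 TPM, SD, n = 2), Vangl2 (24.2 ± 1.61), Celsr1 (21.5 ± 4.18) and Ptk7 (19.8 ± 0.625), and each overlapped the next within its replicates, although Ptk7 lay below Vangl2 and Fzd6 without overlap. Fzd3 (13.9 ± 0.283), Prickle1 (13.01 ± 0.204) and Fjx1 (10.99 ± 4.46) followed, with no overlap between Fzd3 and Prickle1, while the wide range of Fjx1 (7.83 to 14.1 TPM) took in Prickle1 and reached into Fzd3. Vangl1 (6.36 ± 0.277), Dchs1 (5.18 ± 1.34) and Fat4 (0.735 ± 0.435) closed the order, each apart from its neighbours.

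At E13.5 Ptk7 stood alone at the top with 93.3 ± 5.73 TPM (SD, n = 2). Fzd3 (42.4 ± 0.532), Fzd6 (41.0 ± 17.0), Vangl2 (34.96 ± 2.97), Celsr1 (29.2 ± 4.43) and Vangl1 (29.1 ± 6.97) followed. The replicates of Fzd6 spanned 29.0 to 53.0 TPM and overlapped all 4 others. Vangl1 overlapped Vangl2 and Celsr1, whereas Fzd3, Vangl2 and Celsr1 did not overlap one another. Dchs1 stood apart at 17.5 ± 1.06, Fjx1 (10.8 ± 4.44) and Prickle1 (9.12 ± 4.57) overlapped, and Fat4 was again lowest at 1.27 ± 0.624. Ptk7 thus went from the fourth place to the first, while Prickle1 went from the sixth to the ninth.

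Profiles over the 4 RNA libraries were compared with those of the other 60 tested genes (the rest of the 10 and 4 lists of related genes described below), by the Euclidean distance between log2 CPM values centred on each gene's mean. Vangl1 and Fzd3 were each other's nearest profile, at a distance of 0.23. Ptk7 lay nearest to the ligand gene Wnt7b (0.244, against a median of 1.79 over the 60 genes), and Celsr1 nearest to Scrib, a polarity scaffold (0.19, median 1.07). Dchs1 was nearest to Sec24b, a vesicle coat gene that exports Vangl2 (0.309), and Fjx1 to the glypican Gpc4 (0.323). Prickle1 was nearest to Cthrc1, a secreted Wnt cofactor (0.382), which is also the coding neighbour of Fzd6 within 50 kb. The remaining pairs were Fzd6 with Wnt7a (0.393), Fat4 with Smurf1 (0.421) and Vangl2 with Sfrp2 (0.422). Celsr1 lay at the same rounded distance from Vangl2 (0.422). With 4 libraries these distances mostly repeat the difference between the ages and the spread of single libraries.

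Around the 10 genes, 4 lists of related genes held 51 genes that passed the expression filter, with 11 higher and 13 lower at E13.5 in edgeR, and 18 higher and 5 lower on library totals. Neither balance departs far from that of all genes tested, of which 22.4% were higher and 23.5% lower in the main analysis and 36.3% and 15.6% on library totals. Of the other Fat and Dachsous genes, 4 of 7 were tested, with 1 higher and 1 lower (median log2 fold change 0.70). Fat3, another large cadherin, measured 82.8 and 84.6 CPM at E12.0, then 263 and 146 at E13.5, which gave 1.29 ± 0.30 on the log2 scale (SE, edgeR adjusted p = 0.00589). Without E13.5 replicate 1, Fat3 was at 0.81 and no longer passed (edgeR adjusted p = 0.0558). Dlg5, a membrane scaffold, fell from 254 and 239 CPM to 65.7 and 45.0, by 2.16 ± 0.27 on the log2 scale (SE, edgeR adjusted p = 0.000173).

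Of the other core planar polarity genes, 8 of 10 were tested and 2 were called in the main analysis, both higher (median 0.53). Across all genes tested, 22.4% were higher and 23.5% lower. The list had 5 higher and 0 lower on library totals (median 1.10), and 6 higher and 1 lower on log2(TPM + 1) (median 1.32). Both genes called in the main analysis code for Dishevelled proteins, which carry the Frizzled signal inside the cell. Dvl1 measured 21.2 and 16.7 CPM at E12.0, then 151 and 93.5 at E13.5, and its log2 fold change was 2.69 ± 0.32 (SE, edgeR adjusted p = 0.000124). Dvl3 measured 3.71 and 18.1 CPM at E12.0, then 57.5 and 56.2 at E13.5, and its log2 fold change was 2.37 ± 0.56 (SE, edgeR adjusted p = 0.00618). It was 1.63 without E12.0 replicate 1 and 3.93 without E12.0 replicate 2, and passed in both. In both genes every E13.5 library lay above every E12.0 library, as in 39.3% of all genes tested.

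Among 15 tested genes of 16 for Wnt ligands, co-receptors and related receptors, 3 rose and 3 fell (median −0.30). The ligand Wnt5a, used in planar polarity signalling, measured 22.6 and 25.1 CPM at E12.0, then 63.8 and 59.4 at E13.5 (log2 fold change 1.37 ± 0.28 SE, edgeR adjusted p = 0.00302). Its receptor Ror2 moved the other way, from 28.2 and 30.6 CPM to 4.81 and 7.12 (−2.30 ± 0.40 SE, edgeR adjusted p = 0.0011). The Frizzled receptor Fzd2 rose from 23.0 and 25.9 CPM to 56.1 and 57.0 (1.21 ± 0.29 SE, edgeR adjusted p = 0.00617). The ligand Wnt7b rose from 158 and 122 CPM to 289 and 332 (1.15 ± 0.25 SE, edgeR adjusted p = 0.00421). For all of these genes, which were named because they were called, the libraries of the ages did not overlap, as for 75.4% of all genes tested.

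Of the effectors and regulators, 24 of 25 were tested. Of these, 5 were higher and 9 lower (median −0.33), against 22.4% and 23.5% of all genes tested. The balance turned to 8 higher and 3 lower on library totals (median 0.24) and to 10 higher and 2 lower on log2(TPM + 1) (median 0.61). Grhl3, a transcription factor linked to planar polarity, was at 0 in all 4 libraries. The largest fall was that of Dact2, a Dishevelled-binding regulator, from 130 and 190.3 CPM to 1.72 and 2.58 (−6.21 ± 0.37 SE, edgeR adjusted p = 4.54e-06). Rac1, a small GTPase of the actin cytoskeleton, fell from 1594 and 1155 CPM to 154 and 221 (−2.87 ± 0.30 SE, edgeR adjusted p = 6.42e-05). Dact1, the relative of Dact2, fell from 24.9 and 23.7 CPM to 9.91 and 4.196 (−1.78 ± 0.47 SE, edgeR adjusted p = 0.011). Gipc1, a trafficking adaptor that binds Vangl2, rose from 47.7 and 28.8 CPM to 110 and 137 (1.69 ± 0.30 SE, edgeR adjusted p = 0.00139). The call of Dact1 was lost without E13.5 replicate 2 (−1.29, edgeR adjusted p = 0.0516) and on library totals (−1.20, edgeR adjusted p = 0.0611). Expected counts divide reads shared by similar genes by estimate, which touches families such as the small GTPases.

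**Figure D3:**
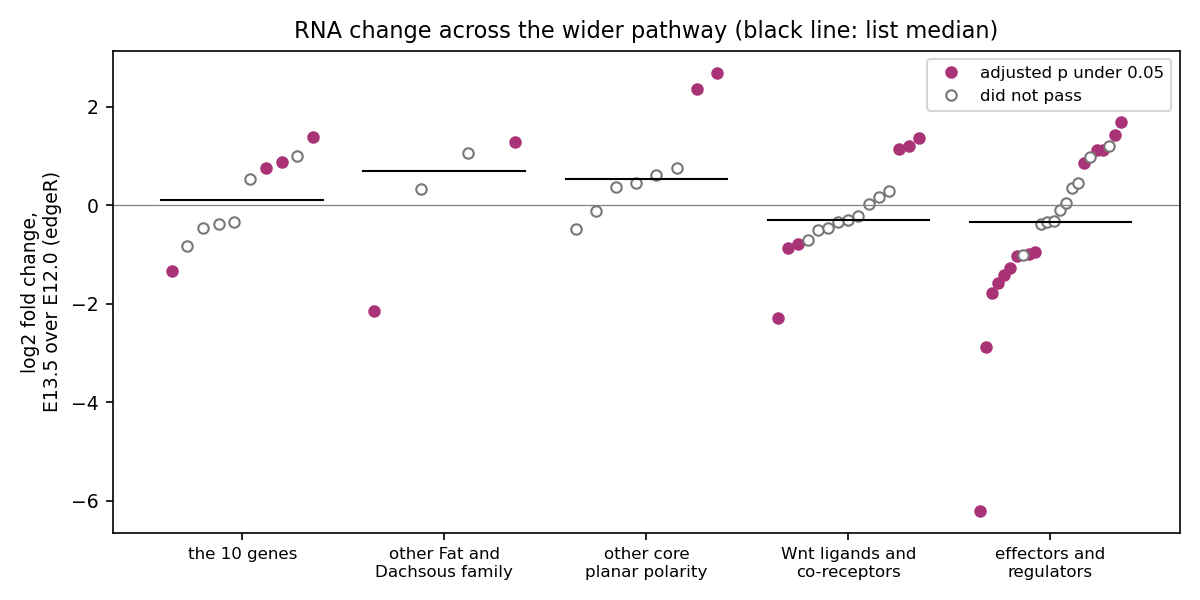
log2 fold change (E13.5 over E12.0, edgeR) of the 10 genes and of 4 lists of related genes, with 1 point per tested gene, filled where the adjusted p was under 0.05, and a black line at the list median. Both called genes among the other core planar polarity genes are higher under this scaling (5 higher and 0 lower on library totals). The effectors and regulators, 24 of the 51 related genes tested, hold 9 of the 13 lower calls under this scaling (3 on library totals). They also hold the lowest point, Dact2 at −6.21. Of all genes tested, 23.5% were called lower.

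ATAC-seq marks open chromatin by where a transposase can cut. Of the 356 regions near the 10 genes, 70 were held by all 6 libraries, 18 by all 3 libraries of E13.5 and none of E12.0, and none by all 3 E12.0 and no E13.5 library. As shares these were 19.7%, 5.06% and 0%, against 10.1%, 6.60% and 0.0540% of all ATAC regions, and 12.2%, 6.002% and 0.049% of those within 50 kb of any coding gene. The E13.5 lists were longer (208061 to 226496 peaks against 112621 to 143817 at E12.0). With each list cut to the same 112621 strongest peaks, 4 of 245 regions were E13.5-only (1.63%, against 3.42% of all regions under this setting). Of these 4, 3 were among the 18 and 1, chr15:93584614-93585181 inside Prickle1, was not. The windows held 167 to 222 peaks per library at E12.0 and 286 to 303 at E13.5, which is no larger a share of the longer lists.

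Fat4 held 7 of the 18 E13.5-only regions, the most of any of the 10, and no other coding gene lies within 50 kb of it. Of these 7, 5 lay inside its span. The strongest, chr3:38900579-38901279, had folds over local background of 5.89, 4.18 and 6.55 in the E13.5 libraries and no peak in any E12.0 library, and it was among the 4 found with lists of equal length. The next, chr3:38962193-38962913, had folds of 4.24, 3.84 and 4.06. Fat4's density of 3.08 E13.5-only regions per 100 kb was higher than that of 98.5% of 21887 coding genes, whose median was 0.591. That density rests on the lists of unequal length. With lists of equal length the strongest region was the only E13.5-only one left at Fat4, and no density was computed. Its 5 regions held by all 6 libraries included one near the lower-coordinate end of the span, chr3:38885158-38886591, with folds of 4.18 to 6.12.

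Dchs1 had 3 E13.5-only regions, of which chr7:105772946-105773565 lay inside the gene, with folds of 5.18, 3.08 and 8.30. A stronger one, chr7:105816814-105817063, lay 28459 bp away and nearer to Mrpl17. Fjx1 had 2, at chr2:102406239-102406876, nearer to Trim44, and chr2:102468710-102469292, where Fjx1 is the nearest coding gene. The 2 of Vangl1, chr3:102169015-102169544 and chr3:102174187-102174886, lay inside the gene, with smallest folds of 2.77 and 2.36. Fzd6 had 1 inside its span, chr15:39008225-39008876 (folds 3.13, 2.76 and 4.27). Of the 2 of Prickle1, chr15:93594893-93595111 lay inside the gene and chr15:93479515-93479891 inside its neighbour Pphln1. The 1 of Celsr1, chr15:86074352-86074660, lay inside Gramd4. Vangl2, Fzd3 and Ptk7 had none.

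Ptk7 and Celsr1 had the most regions open in every library. Around Ptk7 12 of 54 regions were held by all 6 libraries, and around Celsr1 14 of 65. The density of all ATAC regions was 32.6 per 100 kb at Ptk7 and 27.6 at Celsr1, above 97.3% and 90.4% of coding genes (median 15.9). Ptk7 lies among 8 coding neighbours within 50 kb, and only 4 of its 12 constant regions touched its own span. Vangl1 had 9, Dchs1 7, Vangl2 and Fzd3 6 each, Fzd6 5, Prickle1 4 and Fjx1 2.

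**Figure D4:**
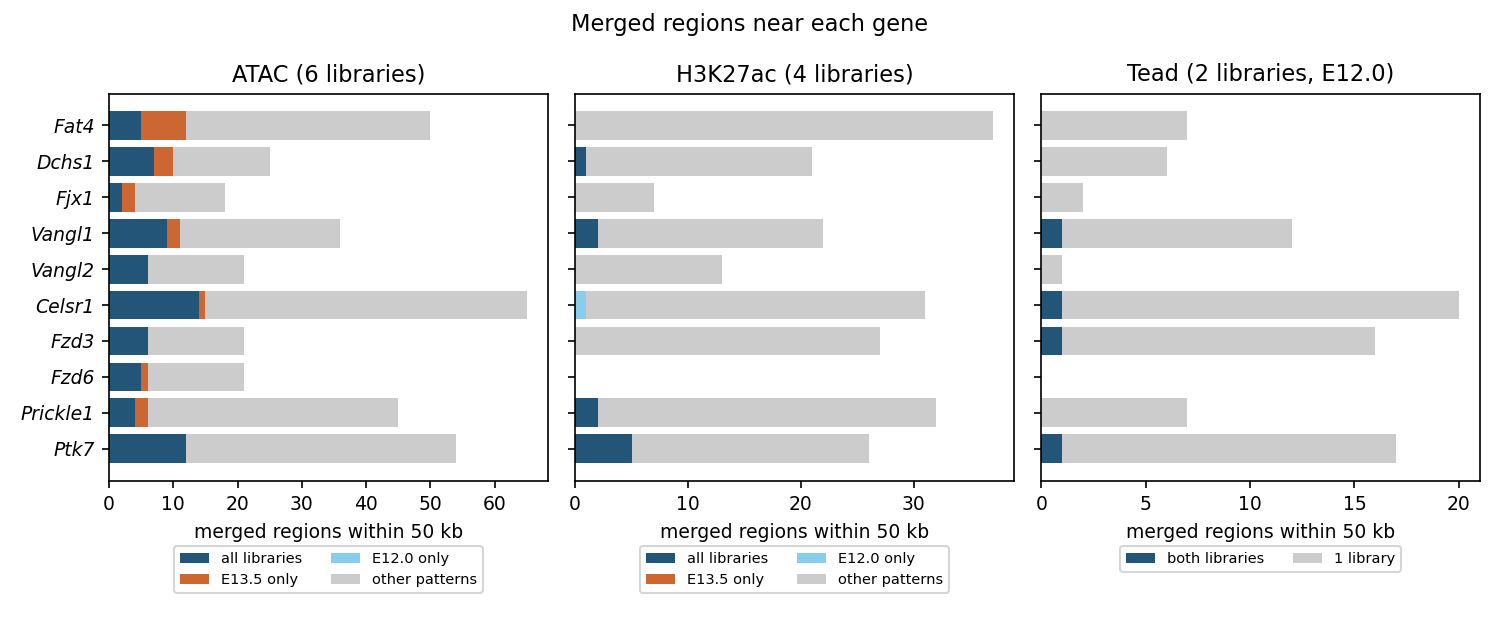
Number of merged ATAC, H3K27ac and Tead regions within 50 kb of each gene, split by which libraries hold a peak there. Ptk7 has 12 ATAC regions in all 6 libraries and none at E13.5 only, Fat4 has 7 at E13.5 only, and the Fzd6 rows of both CUT&RUN assays are empty.

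H3K27ac, an acetylation mark of active promoters and enhancers, was measured by CUT&RUN, which cuts chromatin at an antibody-bound protein. Replicate 1 at E12.0 was made with the KAPA HTP kit and the other 3 libraries with Accel 2S Plus, per the labels. The E12.0 lists held 64887 and 92839 peaks, of which 103 and 64 fell in the windows of the 10 genes. The E13.5 lists held 118017 and 76022 peaks, of which 143 and 40 fell there. E13.5 replicate 2 had 0 peaks near Celsr1, Fjx1 and Fzd6, so no region of E13.5 alone could be called at these genes. Of 216 regions near the 10 genes, 10 (4.63%) were held by all 4 libraries, against 1.97% of all H3K27ac regions and 2.48% of those near any coding gene. None was held at E13.5 by both libraries while absent from E12.0 lists (background 1.40%), and 1 showed the opposite pattern (0.463%, background 0.877%). That 1, chr15:86076330-86076834, lay inside Gramd4, 42107 bp from Celsr1. Most of the 216 regions were held by some libraries of an age and not by the others, and leaving out a library changed these small counts many times over.

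Only 3 of the 10 regions held by all 4 H3K27ac libraries lay inside one of the 10 genes, and the other 7 lay at neighbouring genes such as Srf, Klc4 and Mrpl17. Inside Vangl1 the region chr3:102159053-102160218 had folds of 7.56 and 4.86 at E12.0, then 5.42 and 5.39 at E13.5. Inside Prickle1 the region chr15:93551885-93552751 had folds of 2.78 and 4.13 at E12.0, then 4.13 and 2.99 at E13.5. Inside Ptk7 the region chr17:46617808-46620169 had folds of 4.07 and 4.39 at E12.0, then 5.73 and 2.84 at E13.5. All 3 overlapped ATAC peaks in all 6 libraries. Folds are the authors' values per peak within each list, and no difference between ages is read from them.

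Tead proteins are the DNA-binding partners of Yap, and the labels call the antibody pan-Tead. The 2 Tead libraries at E12.0 were unequal, with 18250 and 58410 peaks, of which 14 and 78 fell in the windows of the 10 genes. Of 88 merged regions, 4 (4.55%) were held by both libraries, against 2.12% of all Tead regions and 2.28% of those near any coding gene. These 4 were at Vangl1, Celsr1, Fzd3 and Ptk7, and 13.3% of coding genes have such a region in their window. Here too replicate 1 was made with the KAPA HTP kit and replicate 2 with Accel 2S Plus, and the part of the kit was not tested. At a stricter limit of −log10 q of 2 or more, none of the 4 was held by both libraries.

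The region in Vangl1, chr3:102159102-102160354, had Tead folds of 2.82 and 3.68 and lay on the H3K27ac region described above. The region in Celsr1, chr15:86005875-86006396, had folds of 2.87 and 1.95. The region in Ptk7, chr17:46594905-46595600, had folds of 2.87 and 2.78. These 3 lay inside the gene spans. The region counted for Fzd3, chr14:65266156-65266590, with folds of 2.72 and 2.33, lay 3693 bp outside the gene and 28 bp from its neighbour Fbxo16.

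All 4 Tead regions overlapped ATAC peaks in every E12.0 and every E13.5 library, which held for 58.4% and 70.1% of the 1590 Tead regions of the genome. In both E12.0 H3K27ac libraries 2 of the 4 had a peak, against 53.9% of all. Of the 4 genes with such a region, Ptk7 and Fzd3 rose and Vangl1 and Celsr1 did not pass the test. Dchs1 and Prickle1, the other genes called, had 6 and 7 Tead regions, each in 1 library alone. Around Fat4 there were 7 and around Fjx1 2, none of them in both libraries.

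Fzd6 has no CUT&RUN value here. None of the 6 lists, H3K27ac or Tead, had a peak between positions 38714183 and 39144207 of chromosome 15, an interval of 430.0 kb around the gene, whereas the ATAC lists had 18 to 43 peaks there.

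**Figure D5:**
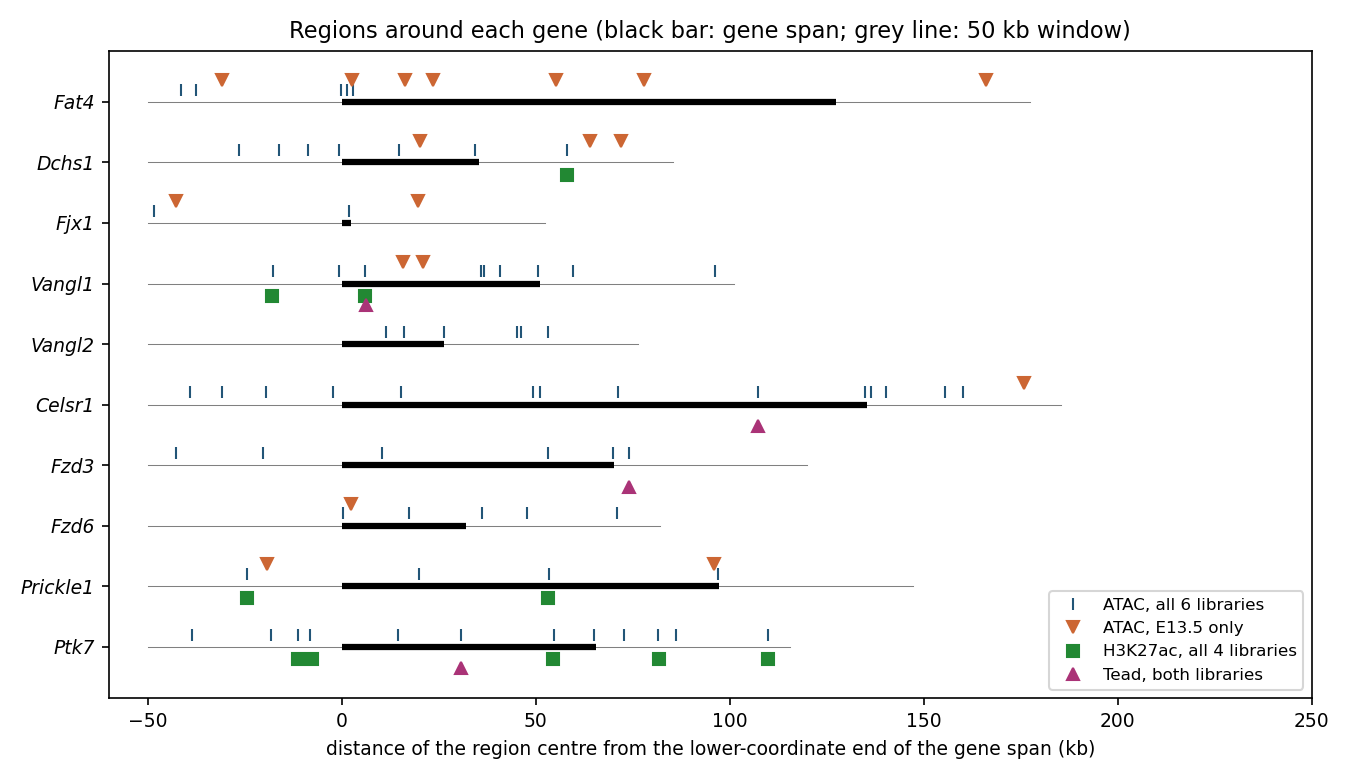
Map of the 50 kb window of each gene, in kb from the lower-coordinate end of the span (black bar), with ATAC regions of all 6 libraries (ticks), ATAC regions at E13.5 only (orange), H3K27ac regions of all 4 libraries (green squares) and Tead regions of both libraries (purple triangles). In Vangl1 the Tead and H3K27ac symbols coincide, and 5 of the 7 orange symbols of Fat4 lie over its black bar.

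Promoter sequences in the RefSeq table (GRCm38.p6, from 250 bases before to 50 after a start) matched Fat4, Vangl2, Prickle1 and Ptk7. Shown 5′ to 3′ on the gene's strand are the gene that rose in every setting, the gene that fell, and the low Fat4. The Ptk7 and Prickle1 windows held ATAC peaks in all 6 libraries, whereas the Fat4 window held none at E12.0. Capitals mark the Tead core GGAATG, which was searched on both strands and so also reads CATTCC.
Ptk7 promoter, chr17:46629455-46629754, minus strand: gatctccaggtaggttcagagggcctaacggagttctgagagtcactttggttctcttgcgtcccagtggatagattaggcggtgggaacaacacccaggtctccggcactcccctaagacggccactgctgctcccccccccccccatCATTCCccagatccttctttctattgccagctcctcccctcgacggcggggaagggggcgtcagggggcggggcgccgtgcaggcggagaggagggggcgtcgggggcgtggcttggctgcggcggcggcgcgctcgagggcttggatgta
Prickle1 promoter, chr15:93595853-93596152, minus strand: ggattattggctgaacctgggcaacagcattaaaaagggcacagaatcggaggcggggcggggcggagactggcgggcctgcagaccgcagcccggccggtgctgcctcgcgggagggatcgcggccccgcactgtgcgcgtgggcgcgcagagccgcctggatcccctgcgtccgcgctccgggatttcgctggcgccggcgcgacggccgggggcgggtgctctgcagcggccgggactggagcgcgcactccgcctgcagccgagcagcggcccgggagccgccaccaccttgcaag
Fat4 promoter, chr3:38886690-38886989, plus strand: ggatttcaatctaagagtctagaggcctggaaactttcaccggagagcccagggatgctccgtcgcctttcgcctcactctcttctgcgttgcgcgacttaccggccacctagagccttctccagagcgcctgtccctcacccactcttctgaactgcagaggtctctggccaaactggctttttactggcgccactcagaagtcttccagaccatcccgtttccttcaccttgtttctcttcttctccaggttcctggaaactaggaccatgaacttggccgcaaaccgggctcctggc

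The Ptk7 promoter held an ATAC peak in all 6 libraries, with folds of 5.92, 8.29 and 6.79 at E12.0, then 8.45, 7.15 and 6.58 at E13.5. It contains 1 Tead core, at bases 150 to 155 of the printed sequence, and 14.66% of 32851 promoters of this length hold that motif. No Tead peak lay on it, and an H3K27ac peak lay on it only in E12.0 replicate 1 (fold 2.83).

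The Prickle1 promoter, with 39 CpG pairs, was richer in CpG than 95.6% of promoters, whose median was 7. It held ATAC peaks in all 6 libraries, with folds of 5.23, 9.78 and 6.45 at E12.0, then 12.02, 9.10 and 9.26 at E13.5, without an H3K27ac or Tead peak. A second Prickle1 start inside the gene, chr15:93519471-93519770, had peaks in E12.0 replicates 1 and 2 (folds 2.16 and 8.06), none in replicate 3, and folds of 8.60, 8.30 and 9.83 at E13.5. The Fat4 promoter sequence held 13 CpG pairs. Its window had no ATAC peak at E12.0 and a weak one in 2 of 3 libraries at E13.5 (folds 2.15 and 2.16). The Fat4 span starts before this window, at position 38884667. Between them lies the region described above that all 6 libraries held, so the window does not describe accessibility across the whole start of Fat4. The Vangl2 promoter, chr1:172027246-172027545, had ATAC folds of 5.42 to 9.004 over the 6 libraries, and H3K27ac folds of 2.31 and 3.23 at E12.0 and 4.28 in E13.5 replicate 1 alone. Neither the Tead core nor the Sox core ACAAAG (either strand, in 18.71% of promoters) was present in the Fat4, Prickle1 or Vangl2 sequences, and the Sox core was not in that of Ptk7.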

How the data were processed

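RNA was measured in 4 libraries, open chromatin (ATAC) in 6, H3K27ac in 4 and Tead in 2, with ages taken from the titles. Per the file headers, the authors deposited expected counts for each gene, with its length. Which tool made them is not given in the sources at hand. STAR, UMI-tools, MACS2 and GRCm38/mm10 are named, without versions, in the submitters' processing notes. Each deposited peak list covers 1 library and carries the authors' fold (signal over local background at the summit). The deposited −log10 p and −log10 q of each peak served as filters and ranks. The deposited score column was not used.

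Expected counts were rounded, filtered with filterByExpr, scaled with TMM factors, and tested in edgeR 4.0.16 (R 4.3.3). DESeq2 1.42.0 and limma 3.58.1 on log2(TPM + 1) or log2(TPM + 0.1) were alternatives, with TPM computed from the authors' deposited expected counts and effective lengths. The other alternatives were upper-quartile scaling, library totals, no mitochondrial genes, no filter and a replicate block. The steps were tested on simulated data. Symbols matched 48349 of 48709 identifiers.

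Peaks of one assay that overlapped by at least 1 bp were merged over libraries, and a region belonged to 1 age when all libraries of that age and none of the other held it. Gene spans were those of RefSeq (GRCm38.p6), in a table that gives no strand, exons or introns. No test was made on peaks, which carry no value where a library has none. Peaks on unplaced contigs (58 to 90 per list) occur in the E12.0 ATAC lists and in no other list. All 10 genes are named, and of each related list up to 4 called genes by absolute log2 fold change, plus any gene at 0 in an age. The genes and lists were chosen with earlier results of these data known. Replicate counts did not agree within sampling noise (chi-square over degrees of freedom of 32.7 and 50.8 for the younger and older pair), so each library was counted once.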

Additional observations from a re-analysis of the deposited data

How the results depend on the processing

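Only 2 RNA libraries per age, peak lists of unequal length and low Fat4 counts (23 to 273 reads) limit these results. Among the 10 genes, 4 were called in the main analysis, and 1 to 3 when 1 RNA library was left out, with 1 to 2 higher and 0 to 2 lower. On library totals, log2(TPM + 1) and log2(TPM + 0.1), 0 were called lower. The sign of Vangl2 turned to 0.12, 0.51 and 0.53 in these 3 settings, that of Celsr1 to 0.20, 0.43 and 0.44, and that of Fzd6 to 0.26, 0.48 and 0.50, while the median of all genes moved to 0.62, 0.755 and 0.895. With 1 library left out, Fzd6 ranged from −0.86 to 0.15, positive without E12.0 replicate 1 (0.15) and without E13.5 replicate 1 (0.05). The cause was not tested. DESeq2, upper-quartile scaling, leaving out mitochondrial genes and no filter on low counts each gave 3 higher and 1 lower. Over the 51 related genes, 11 higher and 13 lower became 18 and 5 on library totals, 23 and 5 on log2(TPM + 1), and 21 and 5 on log2(TPM + 0.1).

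RNA libraries of the same replicate number showed no shared deviation from the means of their ages (correlation 0.00816). With 2 libraries per age this is a single value, and it cannot show whether equally numbered libraries were processed together. With the replicate number as a block, 7138 genes were called in place of 7340, and the same number of the 10 genes, 4. In that block fit the log2 fold changes were 0.87 for Dchs1 (edgeR adjusted p = 0.024), 0.77 for Fzd3 (0.0485), −1.42 for Prickle1 (0.00492) and 1.40 for Ptk7 (0.000272).

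The 18 ATAC regions of a single age, all of them at E13.5, became 10 within 10 kb. With lists of equal length there were 4, of which 3 were among the 18. Leaving out 1 ATAC library gave 21 to 34 of a single age, 20 to 33 at E13.5 only and 0 to 2 at E12.0 only. The 70 ATAC regions held by all libraries became 31 when 1 library's peaks had to cover 50% of the region, 43 within 10 kb and 42 when the nearest coding gene had to be one of the 10. For H3K27ac, the 1 region of a single age, at E12.0, became 0 within 10 kb and 0 by nearest gene. At −log10 q of 2 or more there were 0 at E12.0 only and 1 at E13.5 only. Leaving out 1 H3K27ac library gave 31 to 71 of a single age, 0 to 70 at E13.5 only and 1 to 32 at E12.0 only, since 1 library then stands for an age. The 10 held by all H3K27ac libraries became 3 at −log10 q of 2 or more, 2 with 50% covered, 4 within 10 kb, 3 by nearest gene, and 9 to 24 without 1 library. The 4 Tead regions became 0 at −log10 q of 2 or more and 2 with 50% covered. A single library alone gives 78 without replicate 1 and 14 without replicate 2.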

Other observations

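The interval without CUT&RUN peaks around Fzd6 was one of 71 gaps of at least its width. These were counted over 428404 pairs of successive peaks in the 6 CUT&RUN lists pooled, with overlapping pairs included. Over the pairs with bases between them, the median gap was 4.16 kb. Cthrc1, the coding neighbour of Fzd6, lies in the same interval.

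Summed over the 10 genes, TPM was 143 and 145 in the younger libraries, against 283 and 334 in the older. The other core planar polarity genes summed to 133 and 174 TPM and then to 367 and 304, and the Wnt ligand and receptor list to 699 and 868 and then to 1271 and 1442. The other Fat and Dachsous genes summed to 143 and 180 TPM and then to 146 and 96.0. The effectors and regulators summed to 1804 and 2160 TPM and then to 1749 and 2078, with overlap of the ages. These sums share the shift of the TPM scale given above.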
